A study of Mus musculus with 35 samples.

Results

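Long nuclear noncoding RNAs are RNAs made by RNA polymerase II that stay in the nucleus and code for no protein. The 5 examined here were Malat1, Neat1, Meg3, Miat and Kcnq1ot1, taken by gene name from the 24411 gene rows of the deposited gene tables, in which all 5 were present. Their RNA was measured by RNA-seq in germ cells of adult mice of a mixed C57Bl/6J and SV129 background that had lost Smg6, the endonuclease of nonsense-mediated RNA decay (NMD), and in littermate controls. In Smg6-cKO mice, Ngn3Cre deleted the floxed Smg6 allele in germ cells, so that somatic cells of the testis kept it. Controls were Ngn3Cre-negative and carried Smg6(fx/fx) or Smg6(fx/wt). Pachytene spermatocytes (Spc) and round spermatids (RS) were sequenced in 3 libraries per genotype from poly(A) RNA, and chromatoid bodies (CBs), cytoplasmic RNA and protein granules of round spermatids, in 4 control and 3 cKO libraries of total RNA without removal of ribosomal RNA, each CB library from pooled mice. The columns of CB and small RNA libraries could not be matched to the replicate numbers of the labels and are lettered here. By the paper's DAPI staining the Spc and RS fractions were enriched but not pure, so each held other cells. Small RNA was sequenced in 5 libraries per genotype of Spc and 3 of RS. The methods sources speak of 3 biological replicates for small RNA of Spc, so the 5 may share animals, and p-values over them are then too small.

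Libraries held 38129415 to 49940226 counts on genes and repeats in Spc and RS, 7243210 to 16699210 in control CBs and 3965541 to 8030314 in cKO CBs, and the miRNA table held 120483 to 306864 counts per library. Whole-gene counts of Smg6 were not lower in cKO libraries by the test, with log2 fold changes (cKO over control) of 0.22 in Spc (adjusted p = 0.361), where all cKO libraries lay above the controls, -0.01 in RS (adjusted p = 0.968, or 0.62 and adjusted p = 0.00377 with scaling by library size) and -0.03 in CBs (adjusted p = 0.907) in edgeR's quasi-likelihood test, and the deleted exon cannot be read from these counts. Transcripts of late spermatids were lower in cKO libraries, with 10 of 10 listed markers lower in each of Spc, RS and CBs. Markers of testicular somatic cells were found in all fractions and differed with genotype. Summed macrophage markers (14 genes) were at 36.5 to 57.5 CPM (counts relative to the scaled library total) in control RS and 266 to 454 in cKO RS, Leydig cell markers (10 genes) at 31.7 to 34.8 and 51.0 to 389, and Sertoli cell markers (12 genes) at 71.1 to 89.0 and 105 to 275, while no gene of these 3 lists was at 0 in any RS library. In Spc the same sums were 44.4 to 46.9 in controls and 59.4 to 91.9 in cKO for macrophage, 168 to 491 and 674 to 1357 for Leydig, and 357 to 958 and 202 to 303 for Sertoli markers. Summed peritubular myoid markers were lower in cKO RS (62.4 to 76.1 against 385 to 469 CPM), as were endothelial ones (16.1 to 19.1 against 36.0 to 46.7), and erythroid ones (68.0 to 250 against 22.4 to 25.7) and spermatocyte ones (1157 to 1299 against 828 to 898) were higher. The myoid and endothelial sums do not stand for their lists, of which 2 genes passed higher and 2 lower, and 1 higher and 2 lower, of 8 tested each. In bulk samples of this kind, a change in the number of cells of a type and a change of RNA per cell cannot be told apart.

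Malat1 gathers in nuclear speckles, where splicing factors are stored, and Neat1 is the scaffold around which paraspeckles form. Meg3 is expressed from the maternal copy of the imprinted Dlk1-Dio3 region, Kcnq1ot1 from the paternal copy of the Kcnq1 region, which it silences in cis, and Miat binds splicing factors in the nucleus. All are annotated as noncoding, whereas NMD acts on RNAs as they are translated in the cytoplasm.

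The 5 RNAs did not move together (the plot of log2 fold changes shows all comparisons). A gene passed where its p in edgeR's quasi-likelihood test, adjusted by Benjamini-Hochberg over all genes tested, did not exceed 0.05. In cKO against control Spc, 0 of 5 passed, where 28.2% of all tested genes did; 2 had an unadjusted p of at most 0.05, and DESeq2 passed 2 (Meg3 higher and Kcnq1ot1 lower). In RS, 3 of 5 passed (Neat1 and Meg3 higher, Kcnq1ot1 lower), against 72.7% of all genes, and in CBs 3 of 5 (Malat1, Neat1 and Meg3, all higher), against 36.6%. From Spc to RS, 3 of 5 were lower in controls (Malat1, Neat1 and Meg3), against 75.9% of all genes in either direction, and 2 of 5 were lower in cKO cells (Neat1 and Meg3), against 45.4%. The effect of genotype was not shown to differ between Spc and RS for any of the 5, since the interaction of genotype and cell type passed for 0 of 5 in both edgeR and DESeq2 (0 of 5 at an unadjusted p of at most 0.05), against 43.1% of all genes in edgeR. The RS and CB counts thus stood below and above their backgrounds, and with 5 genes neither says anything particular about them as a group.

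**Figure D1:**
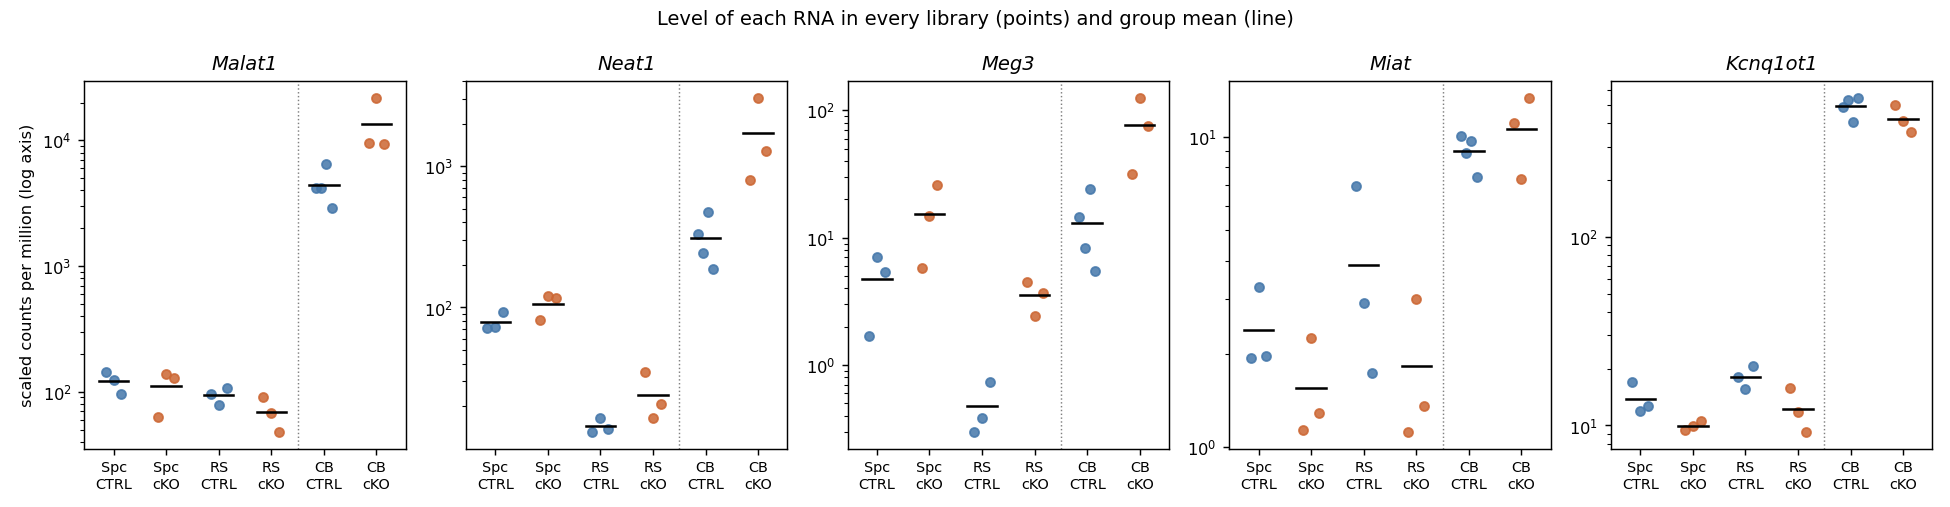
Each point is 1 library and each line a group mean of scaled CPM on a log axis, for Spc and RS libraries scaled together and, right of the dotted line, CB libraries scaled among themselves. The 3 cKO CB libraries lie above all 4 control CB libraries for Malat1, Neat1 and Meg3, and the 3 cKO RS libraries lie above the 3 control RS libraries for Meg3.

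**Figure D2:**
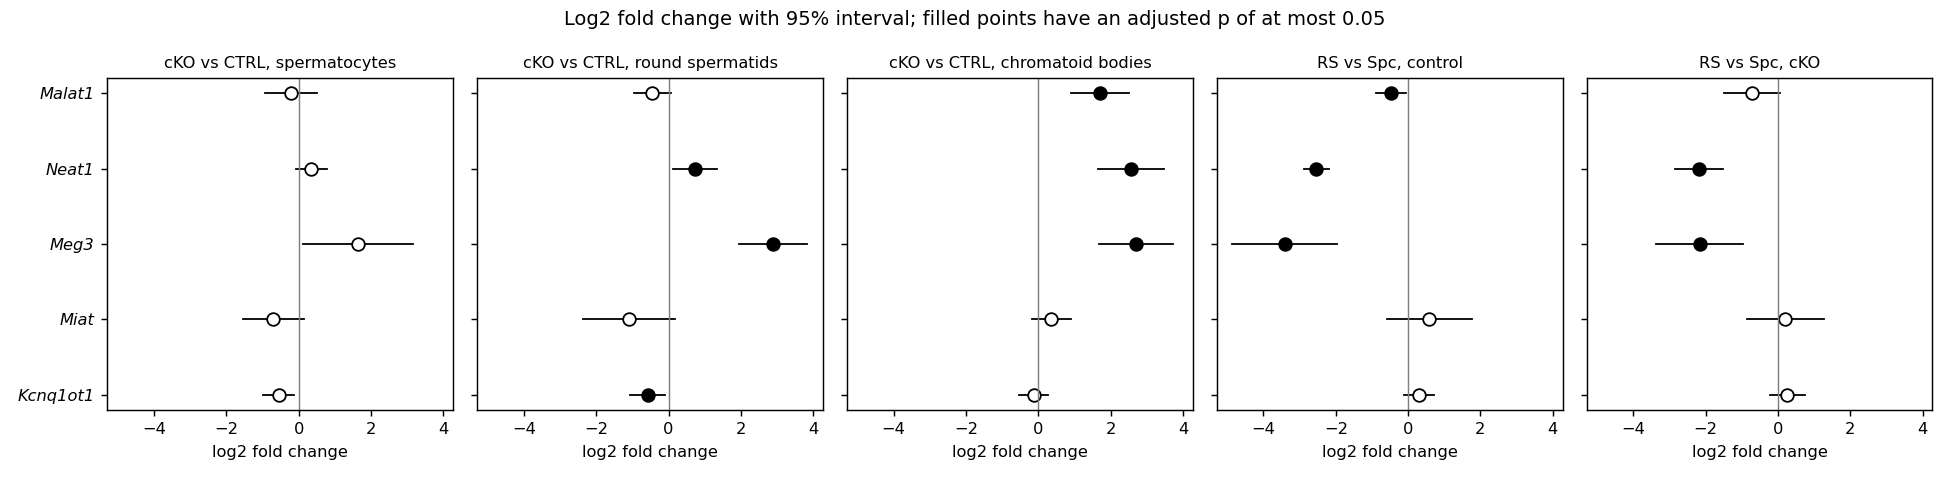
Points give log2 fold changes from edgeR and bars their 95% intervals for the 5 RNAs in each comparison. Filled points have an adjusted p of at most 0.05, as for Meg3 in RS at 2.90 and Neat1 in CBs at 2.56.

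Malat1 lies on chromosome 19 at 5795690 to 5802672, minus strand (GRCm38, ENSMUSG00000092341). It was the most abundant of the 5 per kb of the longest transcript in every group, an order that turned for Neat1 in Spc with another length. Scaled levels in Spc were 145, 125 and 95.5 CPM in the controls and 63.2, 139 and 130 CPM in the cKO libraries. In RS they were 96.1, 78.1 and 107 CPM in the controls and 91.6, 67.8 and 47.8 CPM in cKO. The genotypes overlapped in both cell types, and the log2 fold changes of -0.22 in Spc (SE 0.31, adjusted p = 0.613) and -0.45 in RS (SE 0.22, 95% interval -0.96 to 0.06, adjusted p = 0.0982) did not pass. With scaling by library size alone, the median of all genes in RS moved from 0.11 to 0.73 and Malat1 to 0.18, so its sign depended on the scaling while it stayed below the median gene in both. In RS Malat1 was lower in DESeq2 (-0.52, adjusted p = 0.0220) and in edgeR without cKO RS library 1 (-0.64, adjusted p = 0.0239), and in Spc it stood at 0.08 without cKO Spc library 1.

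In CB libraries Malat1 was higher in cKO mice. CBs were immunoprecipitated from the low-speed pellet of fixed and sonicated germ cells. Whether nuclear RNA was carried over into these libraries, and to a like degree in both genotypes, was not tested for any RNA here. The control libraries stood at 4211, 4210, 6455 and 2911 CPM and the cKO libraries at 9591, 21833 and 9304 CPM. The groups did not overlap, and the difference was 3.26-fold (log2 1.70, SE 0.38, adjusted p = 0.00366). Without the cKO CB library at 21833 CPM the log2 difference was 1.15 (adjusted p = 0.0186). Malat1 fell from Spc to RS in controls by 0.48 on the log2 scale (SE 0.18, adjusted p = 0.0396), and the difference in cKO cells was -0.72 (SE 0.33, adjusted p = 0.111). The control call was lost in DESeq2 (adjusted p = 0.0651) and without control Spc library 1 (-0.34) or 2 (-0.48) or control RS library 1 (-0.48) or 2 (-0.36), while the cKO value passed in DESeq2 (adjusted p = 0.0484) and without cKO Spc library 1 (-0.94, adjusted p = 0.0363).

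Neat1 lies next to Malat1 on chromosome 19, at 5824708 to 5845478 on the minus strand (ENSMUSG00000092274). It has a short form of 3004 nt that ends at a polyadenylation signal, and a long form of 20771 nt that starts at the same place, runs on through that signal and is the form that builds paraspeckles. The 3′ ends of the 2 forms, and that of Malat1, are shown because poly(A) selection, used for Spc and RS but not for CBs, captures RNA by its tail. The long form and Malat1 are known to be cut by RNase P and to end in a stabilised A-rich stretch in place of a poly(A) tail. Each line gives the last 30 bases of the annotated transcript, read from the GRCm38.p6 genome of RefSeq on the minus strand, 5′ to 3′, with the hexamer AATAAA in capitals where it occurs.
Neat1 short form, chr19:5842307-5842336: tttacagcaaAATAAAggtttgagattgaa
Neat1 long form, chr19:5824708-5824737: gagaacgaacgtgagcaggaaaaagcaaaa
Malat1, chr19:5795690-5795719: ttttatgaAATAAAaactaaatatctctca
The hexamer was searched on the transcript strand alone. In the short form it is followed by 14 bases to the end, and it is absent from the long form's window, which holds 16 A. In Malat1's window the hexamer is followed by 16 bases and there are 14 A, and whether this annotated end is the one left by RNase P was not tested. Among all 141730 annotated transcript ends, 23.3% hold AATAAA in their last 30 bases, and 7.61% hold 16 or more A.

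Neat1 was high in Spc and low in RS. In Spc it stood at 71.4, 72.4 and 92.7 CPM in controls and at 81.4, 121 and 117 CPM in cKO. In RS it stood at 13.1, 16.5 and 13.9 CPM in controls and at 35, 16.6 and 20.7 CPM in cKO. Every RS library of either genotype lay below every Spc library, and the fall from Spc to RS was 2.53 on the log2 scale in controls (SE 0.15, adjusted p = 3.8e-05) and 2.18 in cKO cells (SE 0.29, adjusted p = 0.00102). Between genotypes, Neat1 differed by 0.35 in Spc (SE 0.18, adjusted p = 0.186) and rose in cKO RS by 0.72 (SE 0.26, 95% interval 0.11 to 1.33, adjusted p = 0.0360). The RS groups were separated only narrowly, by the cKO library at 16.6 CPM, and the call was lost without control RS library 1 (0.64, adjusted p = 0.108), 2 (0.82, adjusted p = 0.0513) or 3 (0.69, adjusted p = 0.0940) and without cKO RS library 1 (0.42, adjusted p = 0.0683).

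In CBs Neat1 was at 331, 242, 477 and 187 CPM in controls and at 803, 3047 and 1282 CPM in cKO. The groups did not overlap, and Neat1 was 5.91-fold higher in cKO (log2 2.56, SE 0.42, adjusted p = 0.000572). Without the library at 3047 CPM the log2 difference was 1.82 (adjusted p = 0.0019). Somatic markers moved with these CB differences in part. Summed macrophage markers were at 15.3 to 23.1 CPM in control and 20.4 to 97.1 in cKO CBs, Leydig markers at 33.8 to 86.4 and 67.9 to 488, and Sertoli markers at 37.1 to 50.3 and 48.5 to 114, with at most 2 macrophage and 1 Sertoli genes at 0 in a library. In 1 cKO CB library the macrophage sum of 20.4, the Leydig sum of 67.9 and the Sertoli sum of 48.5 CPM all lay within the control ranges, and in that library Malat1 (9591 CPM), Neat1 (803 CPM) and Meg3 (31.7 CPM) were each above every control CB library. This is 1 library, and the part of somatic cells in the CB differences was not tested.

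The position of the read pairs along Neat1 was a measure added after the gene results were seen. The percentage of Neat1 pairs that fell outside the short form, in the 17767 nt that only the long form has, was 1.90, 1.53 and 1.43 in control Spc and 1.25, 1.11 and 1.14 in cKO Spc. In RS it was 3.85, 5.48 and 5.57 in controls and 2.55, 5.44 and 3.67 in cKO. In CBs it was 65.6, 61.9, 64.4 and 58.8 in controls and 48.3, 53.1 and 52.5 in cKO. Poly(A) libraries thus held almost only pairs of the short form's part, and total RNA of CBs held most of its pairs outside it, in libraries that differ in fraction and in preparation at once, which cannot be told apart. Within CBs the percentage was lower in cKO by 11.4 points (51.3 ± 2.63, SD, n = 3, against 62.7 ± 2.99, n = 4), with no overlap, and the exact two-sided permutation test gave p = 0.0286, the smallest that 3 against 4 libraries allow. In Spc the cKO values were also below all control values (exact permutation p = 0.1, the smallest that 3 against 3 allow), and in RS the groups overlapped (exact permutation p = 0.2).

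The counts assigned to each annotated form were both higher in cKO CBs. The short form's exons lie within the long form, so its value is for the part that both share and does not separate the forms. The long form changed by a log2 value of 2.57 (SE 0.50, adjusted p = 0.00340) and the short form by 3.09 (SE 0.44, adjusted p = 0.000943) in edgeR on transcript counts, in which a pair that fits both forms is shared between them. Across the transcripts of all 5 RNAs, 8 of 11 tested passed in CBs, all higher, against 35.9% of all transcripts, and 4 of 11 in RS, all higher, against 74.9%. In Spc 1 of 18 passed, the single Kcnq1ot1 model, which was lower, against 28.6%. Normalised by length, pairs lay more densely in the short form's part in every library of every group.

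**Figure D3:**
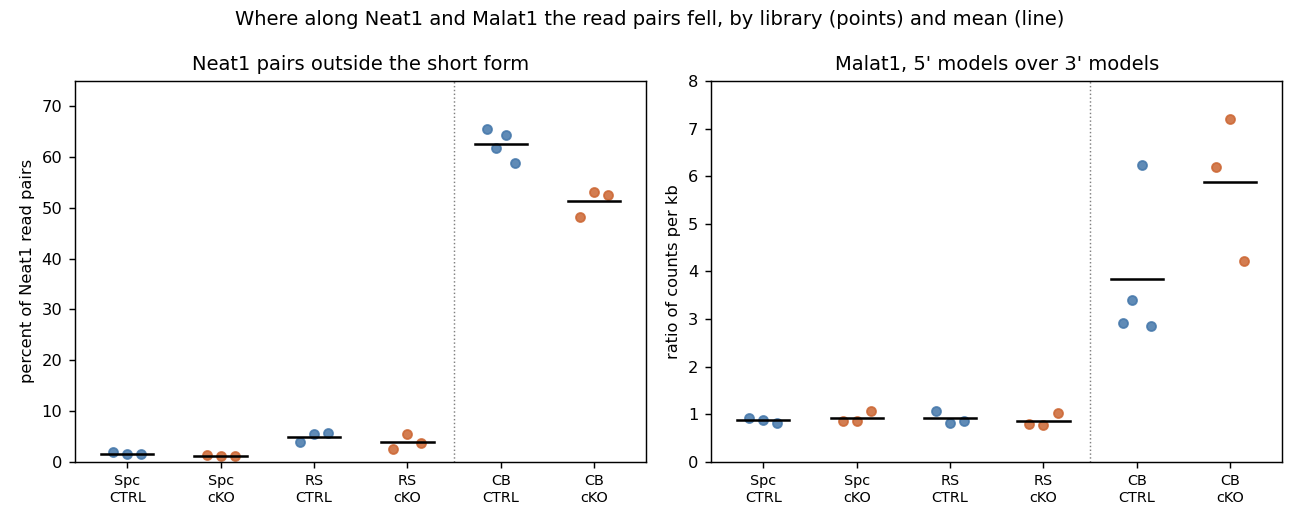
The left panel plots the percentage of Neat1 read pairs outside the short form and the right panel the ratio of Malat1 counts per kb in a 5′ model to those in 2 models near the 3′ end, with 1 point per library and a line at each mean. Neat1 pairs outside the short form make up 48.3% to 65.6% in CBs and 1.11% to 5.57% in Spc and RS.

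Along Malat1, the count per kb of the annotated 5′ model over that of 2 models near the 3′ end (556 and 656 nt) was 0.781 to 1.06 in the 12 Spc and RS libraries. In CBs the ratio was 2.91, 3.40, 6.23 and 2.85 in controls and 6.19, 7.21 and 4.23 in cKO. CB libraries of both genotypes thus had more pairs towards the 5′ end than the poly(A) libraries, and the CB groups overlapped (exact permutation p = 0.2). All 4 annotated Malat1 models rose in cKO CBs, by 1.33 to 2.00 on the log2 scale.

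Genes for the proteins of these bodies were examined from lists written for this comparison. Of 27 genes for paraspeckle proteins, 10 passed in cKO Spc (9 higher, 1 lower; 37% against 28.2% of all genes), 20 in cKO RS (17 higher, 3 lower; 74.1% against 72.7%) and 13 in cKO CBs (12 higher, 1 lower; 48.1% against 36.6%). The share in RS is near the background, and higher calls also outnumbered lower ones in all 3 with scaling by library size. The median log2 fold changes of the list were 0.13, 0.47 and 0.35, beside medians of all genes of -0.01, 0.11 and 0.07. Pspc1, a core paraspeckle protein, rose by 1.61 in Spc (adjusted p = 0.000155) and by 3.45 in RS (adjusted p = 6.49e-08). Dazap1, an RNA-binding protein of the male germ line, rose by 1.21 in Spc, 1.47 in RS and 1.49 in CBs, while Rbm7, which also serves the nuclear exosome, fell in RS by 1.03 and in CBs by 0.77. From Spc to RS in controls 18 of the 27 fell, Pspc1 by 2.18 and Tardbp by 1.97, and 2 rose, or 74.1% beside 75.9% of all genes, of which 39.7% were lower. With scaling by library size 23 fell and 1 rose.

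Nuclear speckles are the bodies in which Malat1 lies. Of 21 genes for their proteins, 9 passed in cKO Spc (8 higher), 17 in cKO RS (16 higher) and 14 in cKO CBs (14 higher), which is 42.9%, 81% and 66.7% beside 28.2%, 72.7% and 36.6% of all genes. With library size scaling the higher calls were 8, 20 and 5 with 1, 1 and 0 lower. In Spc 4 passed without cKO Spc library 1 and 5 without control Spc library 3, and in CBs 7 passed without control CB library c and 9 without control library a or d or cKO library a. The kinase gene Prpf4b rose in RS by 2.30 and the splicing factor gene Srsf3 by 0.86 in Spc and 1.62 in RS, while Pabpn1, which encodes the nuclear poly(A)-binding protein, fell by 0.40 in Spc and 1.63 in RS. In controls 18 of the 21 fell from Spc to RS, Srrm1 by 2.17, and 1 rose, or 90.5% beside the same 75.9%.

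RNase P cuts the 3′ ends of the long Neat1 form and of Malat1, and RNase Z trims the small tRNA-like RNA that this releases. Among 11 genes for these enzymes, Elac2 (RNase Z) rose in Spc (0.87, adjusted p = 0.00242), RS (1.78, adjusted p = 1.48e-06) and CBs (0.79, adjusted p = 0.0110). It was the only one of the list to pass in Spc, of 11 tested, and in CBs, of 6 tested, where with scaling by library size its call was lost (0.62, adjusted p = 0.104) and Rpp30, named for that reason, passed as lower (-1.19, adjusted p = 0.0176). Without cKO CB library c 0 of the list passed in CBs by edgeR, and without control library c or cKO library a or b 2 did. In RS 7 passed (63.6% against 72.7% of all genes), 4 higher and 3 lower, a split that scaling by library size turned to 8 and 0. For 19 genes of the nuclear exosome and its adaptors, which degrade nuclear RNA, 3 passed in Spc (2 higher), 14 in RS (5 higher, 9 lower) and 8 in CBs (3 higher, 5 lower), or 15.8%, 73.7% and 42.1% beside the same backgrounds of 28.2%, 72.7% and 36.6%, so the RS and CB shares are near them. In RS library size scaling gave 9 higher and 5 lower, in CBs 5 passed without control CB library b, and in Spc 5 passed without control Spc library 2. Dis3, the exosome's nuclease, fell in RS by 1.46 (adjusted p = 1.67e-06) and in CBs by 1.15 (adjusted p = 0.000573).

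**Figure D4:**
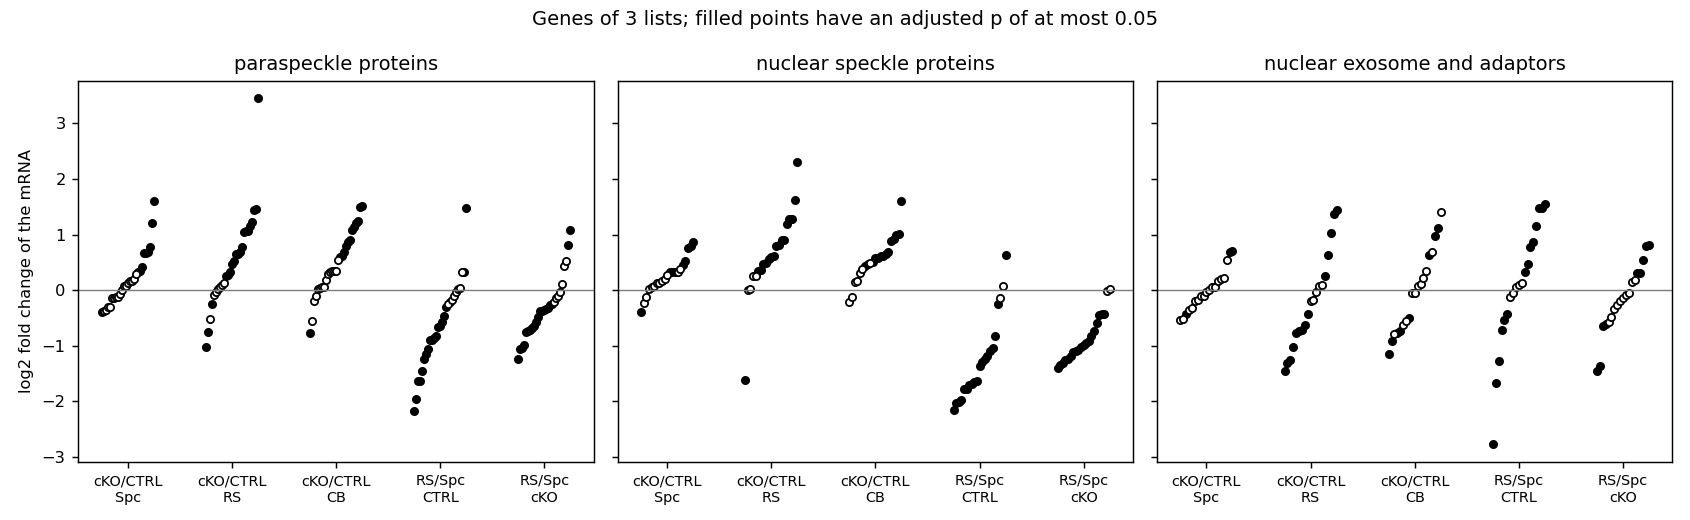
Each point is 1 gene of the list named above the panel, sorted by size within a comparison, and its height the log2 fold change of the gene. Filled points have an adjusted p of at most 0.05, among them Pspc1 at 3.45 in RS.

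Meg3 lies on chromosome 12 at 109541001 to 109571726, plus strand (ENSMUSG00000021268), and showed the largest fold change of the 5 in each comparison of cKO with control. In Spc it stood at 1.68, 7.11 and 5.40 CPM in the controls, the lowest from 71 counts, and at 5.82, 14.8 and 25.7 CPM in cKO. In RS it had 10, 12 and 23 counts in the controls (0.297, 0.381 and 0.741 CPM) and 214, 111 and 188 counts in cKO (4.52, 2.44 and 3.71 CPM). Meg3 was lowest in control RS, and the genotypes were separated in RS and overlapped in Spc. The difference was 7.45-fold in RS (log2 2.90, SE 0.41, adjusted p = 0.000353), between 2.63 and 3.37 on the log2 scale as each library was left out, and log2 1.63 in Spc (SE 0.64, 95% interval 0.11 to 3.15, adjusted p = 0.0977), which did not pass. The effects in Spc and RS did not differ by the interaction (log2 1.16, 95% interval -0.73 to 3.05, adjusted p = 0.289), an interval that is wide.

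In control cells Meg3 fell from Spc to RS by 3.41 on the log2 scale (SE 0.61, adjusted p = 0.00169), and in cKO cells by 2.17 (SE 0.52, adjusted p = 0.0119). Ordered by mean level, cKO Spc (15.5 ± 9.96 CPM, SD, n = 3), control Spc (4.73 ± 2.78) and cKO RS (3.56 ± 1.05) each overlapped with the next, and all of them lay above control RS (0.473 ± 0.236). In CBs Meg3 was at 14.7, 8.26, 24.0 and 5.45 CPM in controls and at 31.7, 126 and 75.0 CPM in cKO. The CB groups did not overlap, and the difference was 6.48-fold (log2 2.70, SE 0.48, adjusted p = 0.000981), or log2 2.16 (adjusted p = 0.00506) without the cKO library at 126 CPM. Of the somatic markers, 8 of 9 Leydig, 10 of 11 Sertoli and 14 of 14 macrophage genes tested were higher in cKO RS, as was Meg3, beside 38.4% of all genes. From control Spc to control RS, where Meg3 fell, 10 of 10 Leydig and 11 of 12 Sertoli genes were lower, beside 39.7% of all genes, while of 14 macrophage genes 4 were higher and 1 lower, and of 8 endothelial genes 5 were higher. From cKO Spc to cKO RS, where Meg3 fell too, 8 of 10 Leydig genes were lower (26.4% of all genes) and 14 of 14 macrophage genes higher (18.9%), and 0 of 12 Sertoli genes passed in edgeR (1 at an unadjusted p of at most 0.05) or in DESeq2. In Spc, 3 of 10 Leydig genes (8 in DESeq2, with all 10 above 0 and a median log2 of 1.43) and 11 of 14 macrophage genes were higher in cKO, beside 14% of all genes, and 9 of 12 Sertoli genes lower, beside 14.1%. Their part in the Meg3 results was not tested.

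Rian and Mirg are long noncoding RNAs made from the same strand of the Dlk1-Dio3 region downstream of Meg3. Rian stood at 1.04, 2.49 and 1.86 CPM in control Spc and 3.36, 5.62 and 7.0 CPM in cKO Spc. Mirg stood at 15.8, 8.88 and 16.4 CPM in control Spc and 33.5, 17.6 and 42.5 CPM in cKO Spc. The cKO libraries lay above the control libraries for both; Rian passed (log2 1.48, adjusted p = 0.0322) and Mirg did not (1.1, adjusted p = 0.0592). The Rian call was lost without control or cKO Spc library 3. In RS the order was the other way round, with Mirg past the threshold (0.94, adjusted p = 0.0110) and Rian just outside it (0.95, adjusted p = 0.0501), and in CBs Rian passed (1.57, adjusted p = 0.00567) and Mirg did not (0.71, adjusted p = 0.0910). Begain, a protein-coding gene at the region's edge, fell in cKO RS by 1.19 (adjusted p = 0.00947), a call lost with scaling by library size (-0.57, adjusted p = 0.143), under which Rian (1.57), Mirg (1.57) and Dlk1 (2.12) all passed as higher. The growth factor gene Dlk1, expressed from the paternal copy, changed by 0.40 in Spc (adjusted p = 0.53) and 1.5 in RS (adjusted p = 0.0508). Neither Rian (-0.35, adjusted p = 0.518) nor Mirg (-0.18, adjusted p = 0.599) passed between control Spc and control RS.

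The region also encodes many miRNAs, which are cut from its long transcripts and were counted in separate small RNA libraries. Of 57 miRNAs listed, 14 arms had enough counts for a test in at least 1 comparison, and 13 of these had a mature sequence in RefSeq (GRCm38.p6). The 6 with the most reads are shown because they are a small RNA readout of the strand that Meg3 comes from. All lie on the plus strand of chromosome 12. Sequences run 5′ to 3′, with the seed (bases 2 to 8), which pairs with target mRNAs, in capitals.
mmu-miR-127-3p, chr12:109592888-109592909: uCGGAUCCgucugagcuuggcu
mmu-miR-434-3p, chr12:109594565-109594586: uUUGAACCaucacucgacuccu
mmu-miR-379-5p, chr12:109709065-109709085: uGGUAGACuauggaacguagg
mmu-miR-411-5p, chr12:109710190-109710210: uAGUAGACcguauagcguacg
mmu-miR-541-5p, chr12:109742422-109742446: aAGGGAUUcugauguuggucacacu
mmu-miR-409-3p, chr12:109743204-109743225: gAAUGUUGcucggugaaccccu
All 13 seeds differ from each other, those of miR-379-5p and miR-411-5p by the single change G2A, counted from the seed's first capital being base 2 of the miRNA. No 2 of these miRNAs are therefore counted from one sequence.

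In cKO Spc 8 of 9 tested region miRNAs passed, all higher, beside 51.9% of all miRNAs, and in cKO RS 8 of 11, of which 7 were higher and 1 lower, beside 43.0%. Summed over all listed region miRNAs, cKO Spc libraries a, b and c stood at 2236, 2268 and 3093 CPM, above the control Spc range of 617 to 1203 CPM, and libraries d and e at 1026 and 977 CPM, within it. miR-127-3p stood at 28.3, 116, 153, 42.1 and 93.4 CPM in control Spc and 254, 310, 437, 105 and 87.2 CPM in cKO Spc. In RS it stood at 27.5, 51.8 and 73.7 CPM in controls and 216, 268 and 492 CPM in cKO. The Spc groups overlapped through 2 cKO libraries, the RS groups did not, and the log2 fold changes were 1.72 (SE 0.51, adjusted p = 0.0145) and 2.65 (SE 0.48, adjusted p = 0.00455). miR-379-5p changed by 1.79 in Spc and 2.72 in RS, miR-411-5p by 2.41 and 2.70, miR-434-3p by 1.41 and 2.35, and both arms of miR-434 passed in both cell types. The Spc calls of miR-434-3p and miR-434-5p were each lost in 5 of the 10 cases in which 1 library was left out, with adjusted p of up to 0.0871 and 0.0694, among them cKO libraries a and c and control libraries a and d for both, and the RS call of miR-434-3p without control library a (adjusted p = 0.0533). Counts behind these values were low, with 3, 6 and 16 counts of miR-127-3p in control RS. A miRNA needed 10 counts in at least 3 libraries to be tested, so it could enter through the group in which it was high. None of the 7 higher ones in RS had 10 counts in all 3 control libraries. miR-434-5p had 1, 0 and 4 counts there and 12, 20 and 36 in cKO RS. How many passed, and in which direction, is therefore in part set by the filter. In Spc 4 region miRNAs passed without cKO library c or control library d and 5 without cKO or control library a, and in RS 4 passed without any 1 of the 3 cKO libraries and 5 without control library a.

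Of the 6 abundant miRNAs, miR-409-3p and miR-541-5p, both within Mirg, gave other values in RS. The less abundant miR-382-5p also lies within Mirg and was higher in cKO RS (at least 60.7 CPM in every cKO library against 0, 43.2 and 23.0 CPM, adjusted p = 0.0296). The miR-369 arms, also within Mirg, did not pass in RS, miR-369-5p at -0.51 (adjusted p = 0.507) and miR-369-3p at -0.15 (adjusted p = 0.861). miR-409-3p was at 229, 199 and 147 CPM in control RS and 45.5, 85.2 and 48.9 CPM in cKO RS. It was lower in cKO RS by 1.69 on the log2 scale (SE 0.38, adjusted p = 0.0102) with no overlap, and differed by 0.19 in Spc (adjusted p = 0.693). miR-541-5p was higher in cKO Spc (1.16, SE 0.21, adjusted p = 0.00087) and changed by -0.40 in RS (95% interval -1.13 to 0.33, adjusted p = 0.331). From control Spc to control RS these 2 were the only ones of 5 tested region miRNAs to pass, miR-409-3p higher by 1.20 (adjusted p = 0.00304) and miR-541-5p by 1.45 (adjusted p = 6e-06), beside 81.7% of all miRNAs, and with scaling by library size 1 of them passed. In cKO cells 0 of 12 passed between Spc and RS, where 0% of all miRNAs did in edgeR, 0 of the 12 had an unadjusted p of at most 0.05 and DESeq2 passed 0, while 7 of all miRNAs had such an unadjusted p and DESeq2 passed 0.

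**Figure D5:**
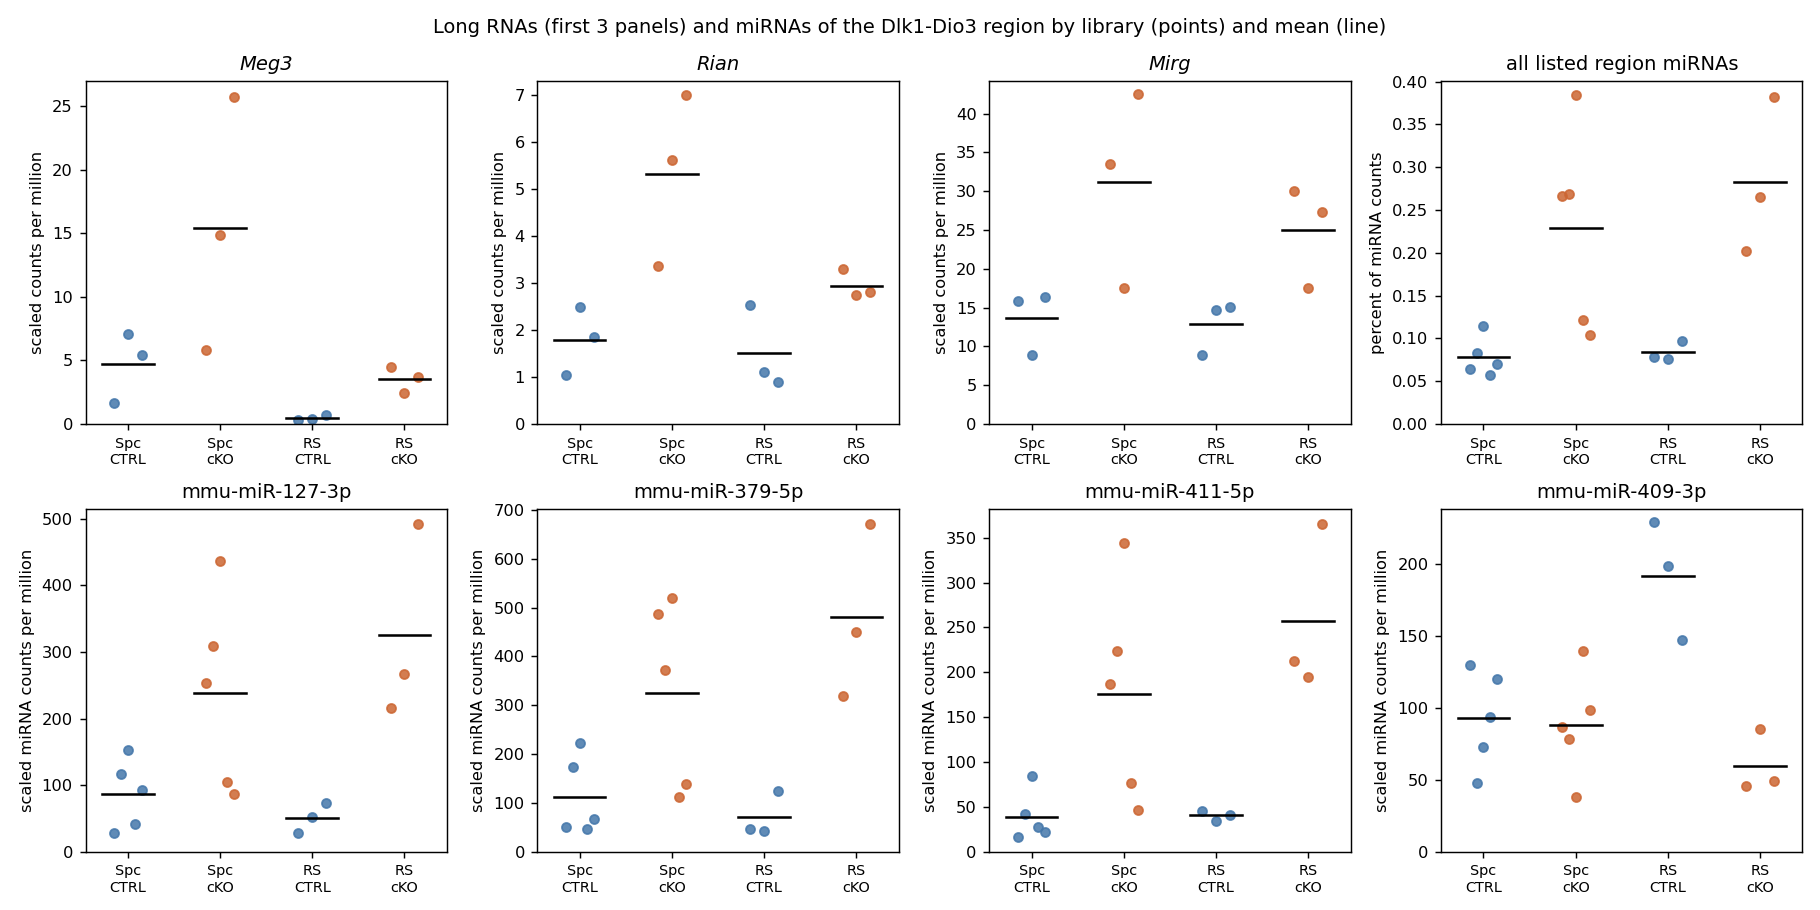
The first 3 panels plot Meg3, Rian and Mirg in scaled CPM, the fourth the percentage of all miRNA counts that fell on the listed region miRNAs, and the lower row 4 of those miRNAs in scaled CPM, with 1 point per library and a line at each mean. The region's share is 0.202% to 0.382% in cKO RS and 0.0759% to 0.0968% in control RS, while miR-409-3p is lower in cKO RS.

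Kcnq1ot1 lies on chromosome 7 at 143203458 to 143296549 on the minus strand (ENSMUSG00000101609), antisense to and within Kcnq1, and the gene counting kept the strands apart. In Spc it was at 17, 12 and 12.6 CPM in controls and 9.51, 9.95 and 10.5 CPM in cKO. In RS it was at 18.1, 15.7 and 20.6 CPM in controls and 15.9, 11.8 and 9.24 CPM in cKO. The cKO libraries lay below the controls in Spc and overlapped with them in RS at 1 library, by 15.7 against 15.9 CPM. The log2 fold changes were nearly the same, -0.56 in Spc (SE 0.18, 95% interval -0.98 to -0.14, adjusted p = 0.0549) and -0.57 in RS (SE 0.21, adjusted p = 0.0357). The RS call was lost without control RS library 1 (-0.59) or 3 (-0.47) and without cKO RS library 2 (-0.50) or 3 (-0.35, adjusted p = 0.108), and from transcript counts summed per gene (-0.49, adjusted p = 0.0673), and with library size scaling the value was 0.06, below the 0.73 of the median gene under that scaling. Between Spc and RS Kcnq1ot1 stood at 0.29 in controls (adjusted p = 0.168, or 0.45 and adjusted p = 0.0185 without control Spc library 1) and 0.26 in cKO (adjusted p = 0.326). In CBs it was at 407 to 545 CPM in the 4 controls and 361 to 498 CPM in the 3 cKO libraries, which overlapped (log2 -0.13, 95% interval -0.52 to 0.26, adjusted p = 0.606).

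Of the listed neighbours that Kcnq1ot1 is known to silence on the paternal chromosome in some tissues, and other genes of the region, 4 of 10 passed in Spc (3 higher, 1 lower), 9 of 11 in RS (6 higher, 3 lower) and 4 of 7 in CBs (all higher), or 40%, 81.8% and 57.1% beside 28.2%, 72.7% and 36.6% of all genes. In Spc 1 passed without control Spc library 3, and 2 passed without control library 2 or any 1 of the cKO Spc libraries. Cdkn1c, an inhibitor of cyclin-dependent kinases, fell in cKO RS by 2.53 (SE 0.19, adjusted p = 9.6e-06), and it rose from control Spc to control RS by 2.02 (SE 0.24, adjusted p = 0.000291). Kcnq1, the potassium channel gene that holds Kcnq1ot1, fell in cKO RS by 0.54 (adjusted p = 0.0264), to 0.08 with library size scaling, and rose by 1.52 between control Spc and control RS. The nucleosome assembly gene Nap1l4 rose in cKO Spc (0.26), RS (1.22) and CBs (0.77), the last call being lost with library size scaling (0.64, adjusted p = 0.0679). The region's genes therefore went in both directions in RS, where Kcnq1ot1 was slightly lower.

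Miat lies on chromosome 5 at 112213228 to 112229395, minus strand (ENSMUSG00000097767). In Spc it was at 1.94, 3.28 and 1.97 CPM in controls and 1.14, 2.25 and 1.29 CPM in cKO. In RS it was at 6.96, 2.92 and 1.74 CPM in controls and 1.12, 3.01 and 1.36 CPM in cKO. All 4 groups overlapped with another, and control RS varied most. It passed in no comparison: log2 -0.70 in Spc (SE 0.36, adjusted p = 0.181), -1.09 in RS (SE 0.55, 95% interval -2.36 to 0.18, adjusted p = 0.107), and 0.59 between control Spc and RS (SE 0.50, adjusted p = 0.309). In CBs Miat was at 10.1, 8.86, 9.75 and 7.44 CPM in controls and 11.1, 7.32 and 13.4 CPM in cKO (log2 0.36, 95% interval -0.18 to 0.91, adjusted p = 0.277). In RS Miat was lower without control RS library 3 (-1.44, adjusted p = 0.0435) or cKO RS library 2 (-1.60, adjusted p = 0.0271). Between control Spc and RS it was at -0.11 without control RS library 1.

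Of the splicing factors that bind Miat, Celf3 fell in cKO RS by 1.17 (adjusted p = 0.00129) and in CBs by 1.57 (adjusted p = 0.000274), with -0.76 in Spc (adjusted p = 0.119), and rose from control Spc to control RS by 1.84 (adjusted p = 0.000487). Qk rose in cKO RS by 0.47 and in CBs by 1.11, and Sf1 in Spc by 0.46 (adjusted p = 0.00762).

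Set side by side per kb of the longest transcript in the files, the 5 RNAs had different orders in the 3 fractions, which come from 2 kinds of library preparation, so that CB levels were not tested against the others. In control Spc the mean levels were 17.4 ± 3.55 CPM per kb for Malat1 (SD, n = 3), 3.80 ± 0.578 for Neat1, 0.325 ± 0.191 for Meg3, 0.261 ± 0.0837 for Miat and 0.164 ± 0.0321 for Kcnq1ot1, and Meg3 overlapped with both Miat and Kcnq1ot1. The order of Malat1 and Neat1 in Spc rests on the 20771 nt long form. When pairs in the short form's part were divided by its 3004 nt, a choice made after seeing the data, Neat1 stood at 23.3, 23.7 and 30.4 CPM per kb in control Spc against 20.7, 17.9 and 13.7 for Malat1, and it was also above Malat1 in all 3 cKO Spc libraries, while Malat1 was above Neat1 in every RS and CB library. In control RS they were 13.4 ± 2.06 for Malat1, 0.699 ± 0.0854 for Neat1, 0.423 ± 0.299 for Miat, 0.215 ± 0.0294 for Kcnq1ot1 and 0.0325 ± 0.0162 for Meg3, and Miat overlapped with both Neat1 and Kcnq1ot1. In control CBs they were 637 ± 211 for Malat1 (n = 4), 14.9 ± 6.09 for Neat1, 5.84 ± 0.737 for Kcnq1ot1, 0.985 ± 0.128 for Miat and 0.900 ± 0.567 for Meg3, and Miat and Meg3 overlapped.

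Over the 12 Spc and RS libraries, the levels of Neat1 and Meg3 went most closely together of the 10 pairs among the 5 (Pearson's r = 0.827), and Meg3 and Kcnq1ot1 most nearly in opposite directions (r = -0.752), as a description of libraries that fall into 4 groups. The genes most like each RNA among 13055 with a mean normalised count of at least 100 were D930048N14Rik (r = 0.922), Leng8 (0.874) and Rap1gap (0.836) for Malat1, Gm6639 (0.993), Gm5878 (0.990) and 4921525O09Rik (0.989) for Neat1, Pnrc1 (0.973), Cic (0.968) and Rgs11 (0.968) for Meg3, 2210011C24Rik (0.870), Arhgap30 (0.854) and Sacm1l (0.851) for Miat, and Eif5a2 (0.930), Map6 (0.914) and Ssbp3 (0.910) for Kcnq1ot1.

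Among 19 other well-known long noncoding RNAs listed for comparison, 1 of 14 tested passed in cKO Spc (Dleu2, higher by 1.03), 8 of 13 in cKO RS (4 higher and 4 lower) and 2 of 11 in cKO CBs (Firre higher, Tug1 lower), or 7.14%, 61.5% and 18.2% beside 28.2%, 72.7% and 36.6% of all genes. The Spc count was 0 in edgeR without control Spc library 3, and the CB count 1 without control CB library a, c or d or cKO library c. Firre, another nuclear RNA, rose in cKO RS by 1.87 and fell from control Spc to control RS by 2.61, the same directions as Neat1 and Meg3, and Pvt1 fell in cKO RS by 1.48. Long noncoding RNAs therefore did not share a direction in cKO RS, where with scaling by library size 7 were higher and 1 lower.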

How the data were processed

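RNA-seq of Spc and RS (poly(A), stranded kit), RNA-seq of CBs (total RNA, directional kit, no fragmentation) and small RNA-seq (QIAseq) were used. Per the labels and the study's methods, the authors trimmed reads (cutadapt), mapped them by STAR to GRCm38 and ran TEtranscripts over genes and repeats in reverse stranded mode, which gave the deposited whole-number gene counts. The deposited transcript tables hold expected counts, since the authors shared a read pair among the transcripts it fits, and these were rounded to whole numbers for tests. The deposited miRNA counts came from SPORTS, with blanks taken as 0. The submitters' processing notes name cutadapt 2.8, STAR 2.7.1a, featureCounts 2.0.1 and HISAT2 2.1.0. How unique molecular identifiers were treated is not given in the sources used here. The model of Kcnq1ot1 in the transcript tables has 84395 nt and that of GENCODE vM21 93092 nt, so the annotation releases differ.

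Each comparison was fitted on its own libraries with edgeR 4.0.16 in R 4.3.3 (TMM scaling, quasi-likelihood test, two-sided, Benjamini-Hochberg over all features tested). Genes and miRNAs needed 10 counts, and transcripts 20, in at least 3 libraries. Values in CPM were scaled by TMM over the 12 Spc and RS libraries together, over the 7 CB libraries, or over the 16 small RNA libraries. The joint scale differs from that of the separate fits by up to 0.11 on the log2 scale. Pairs of Neat1 outside the short form were the long form's fractional count less that of the short form, with which the long form shares pairs equally. Single values were compared by exact permutation tests in Python 3.11.15. The study's methods call the Spc and RS libraries biological replicates, from cells pooled over testes, and the labels name no animals.

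Replicate numbers did not pair the libraries, since in no comparison did every pair of same-numbered libraries deviate together, with correlations of 0.17, -0.12 and 0.28 between genotypes in Spc, -0.12, -0.16 and 0.11 in RS, -0.17, -0.15 and -0.21 between control Spc and RS and -0.02, 0.57 and 0.32 between cKO Spc and RS. No 2 libraries were alike within counting noise. Tested on simulated data with a log2 fold change of 2, the fits recovered 84.5% of changed genes in Spc, 87.5% in RS, 92.0% in CBs and 68.5% for the interaction. Of calls, 9.63%, 7.41%, 7.07% and 6.16% were false, above the adjusted p threshold of 0.05 taken as a share. For miRNAs between control Spc and RS 14.3% were false. Between cKO Spc and RS only 56.7% of changed miRNAs were recovered.

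The 5 RNAs, the gene lists and the marker lists were chosen with earlier results of these data known. Named were the 5 RNAs and Smg6, region genes and Miat-binding proteins, in other lists up to 2 passing genes at each end of the log2 fold changes with a mean normalised count of at least 100, the 4 most abundant transcripts per RNA, the 6 most abundant region miRNAs with at most 3 more per direction, and the 3 most correlated genes. Tug1 and Firre in CBs, the 2 passing genes of their list, are named for that reason alone. The miR-369 arms are named because they lie within Mirg. Alternatives were DESeq2 1.42.0, library size scaling, all features without a filter, gene sums of the transcript counts, a replicate block and leaving out each library.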

Additional observations from a re-analysis of the deposited data

Results flagged for a closer look

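Of 23 groups of 4 or 5 libraries checked, 2 held a library far from the others, and chance flags about 1 group in 20. In control CBs, 1 library had a Malat1 ratio of 5′ to 3′ counts per kb of 6.23, where the median of the 4 was 3.16. In control Spc, 1 small RNA library had 121 CPM of miR-541-5p, below a median of 168 in the 5.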

How the results depend on the processing

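The 0 of 5 RNAs that passed in Spc became 2 with DESeq2 and 1 with the replicate block (Meg3, adjusted p = 0.0198), and transcripts passing there 5 and 7 in place of 1. Of transcripts in RS, 15 passed with no count filter and 1 with the block, in which the Neat1 call in RS (adjusted p = 0.0765) and the Malat1 call from control Spc to RS (adjusted p = 0.0745) were lost too. With no filter 18 transcripts passed in CBs, 13 region miRNAs in RS and 4 between control Spc and RS, where library size scaling left 1. Same-numbered libraries shared only a number. For CBs and small RNA no block could be fitted, because their columns cannot be matched to the replicate numbers of the labels.

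Leaving out 1 library gave 1 to 3 RNAs passing in RS, 2 to 3 between control Spc and RS, 0 in Spc, 3 in CBs and 2 to 3 between cKO Spc and RS, 0 to 2 transcripts in Spc, 1 to 5 in RS, and 4 to 8 region miRNAs in Spc and 4 to 7 in RS. For the 5 RNAs, their transcripts and the miRNAs, a value changed sign in 20 cases of leaving out 1 library. Some values did so without either of 2 libraries. With library size scaling 12 values changed sign. The cause was not tested, beyond that the latter scaling shifted the median gene from -0.08 to -0.54 between control Spc and RS and from -0.13 to 0.58 for the interaction. With library size scaling Malat1 was at 0.18 and Kcnq1ot1 at 0.056 in RS, Kcnq1ot1 at -0.16 between control Spc and RS, and the interaction at 0.36 for Malat1, 0.20 for Miat and 0.57 for Kcnq1ot1. Under it the 4 Malat1 transcripts in RS were at 0.17, 0.16, 0.24 and 0.082, that of Kcnq1ot1 at 0.059, and miR-541-5p in RS at 0.20. With no filter miR-409-3p in Spc was at -0.076. Ranges that crossed 0 as each library was left out were -0.40 to 0.082 for Malat1 in Spc, and for Miat -0.11 to 0.95 between Spc and RS in controls and -0.36 to 0.64 in cKO. For the interaction they were -1.05 to 0.22 for Miat, -0.11 to 0.47 for Neat1 and -0.36 to 0.090 for Kcnq1ot1. For Malat1 transcripts in Spc they were -0.40 to 0.092, -0.43 to 0.047, -0.48 to 0.0025 and -0.40 to 0.15 (0.044 without another library), with -0.49 to 0.067 for 1 in RS, and for the Kcnq1ot1 transcript in CBs -0.12 to 0.11. For miRNAs they were -0.046 to 0.40 for miR-409-3p in Spc and -1.08 to 0.051 for miR-379-5p between control Spc and RS, and between cKO Spc and RS -0.34 to 0.090 for miR-541-5p, -0.13 to 0.70 for miR-127-3p, -0.091 to 0.74 for miR-434-3p and -0.14 to 0.46 for miR-382-5p (-0.022 without another library). Of these results, only Kcnq1ot1 in RS had passed the test. The difference (cKO minus control) in the percentage of Neat1 pairs outside the short form in CBs was between -12.7 and -9.86 points.

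Depth limited Meg3 in control RS and the region miRNAs, most of which had too few counts for a test. Groups of 3 libraries allow no exact p below 0.1.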
